A study of Homo sapiens with 8 samples.

Results

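The genes described here are 10 chromatin enzymes and their partners, EZH2, EZH1, SUZ12, EED and CBX2 of the Polycomb group and DNMT1, DNMT3A, DNMT3B, UHRF1 and TET1 of the DNA methylation system. They were chosen by gene name, with earlier results of these data known. All 10 were found among the 78691 genes of the count table. Poly(A)-selected RNA was sequenced from 2 human prostate cancer cell lines to ask what the MYC family transcription factor MYCL does to gene expression. C4-2B, a prostate adenocarcinoma line, carried either an empty lentiviral vector (C4-2B control) or a lentiviral vector in which the EF1A promoter drives MYCL together with EGFP (C4-2B MYCL). NCI-H660, a neuroendocrine prostate cancer line, received either control shRNA (shCtrl) or shRNA against MYCL (shMYCL). The series design names an adenoviral vector for this knockdown, which in the study's methods carries 3 miR30-based shRNAs under the CMV promoter and acts transiently, whereas the label text speaks of stable knockdown, for which the methods describe a lentiviral U6 shRNA, so the vector of these libraries is uncertain. Each of the 4 groups held 2 libraries, and every library came from cells exposed to a virus. Only the C4-2B control libraries are labelled as biological replicates, so the p-values measure the spread between these samples, which may be technical.

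Polycomb repressive complex PRC2 places methyl groups on lysine 27 of histone H3 through its catalytic subunit EZH2 or EZH1, held in an active form by SUZ12 and EED. CBX2 belongs to PRC1, the complex that reads this mark and compacts chromatin. DNA methylation is copied to the new strand after replication by DNMT1, which UHRF1 guides to half-methylated sites, while DNMT3A and DNMT3B set new marks and TET1 oxidises methylated cytosine as a step towards its removal. In prostate cancer EZH2 is known for its high expression in advanced and neuroendocrine disease. EZH2, DNMT1 and UHRF1 are also known as genes that dividing cells express more than resting cells, under control of E2F factors.

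The letters around the start sites of UHRF1, DNMT1, EZH2 and EZH1 are shown because UHRF1, DNMT1 and EZH2 changed with MYCL in both lines, because EZH1 moved opposite to EZH2 in C4-2B, and because each window holds an 8-letter E2F motif. Promoter windows came from RefSeq on GRCh38.p14, reached from 250 bases before to 50 after an annotated start, and existed for 9 of the 10 genes (all but CBX2), with 19 windows in total. Each is written 5′ to 3′ on the strand of its gene, with the motif in capitals. UHRF1 lies on the plus strand at chr19:4909251-4909550, DNMT1 on the minus strand at chr19:10194904-10195203, EZH2 on the minus strand at chr7:148884242-148884541 and EZH1 on the minus strand at chr17:42744991-42745290.
UHRF1: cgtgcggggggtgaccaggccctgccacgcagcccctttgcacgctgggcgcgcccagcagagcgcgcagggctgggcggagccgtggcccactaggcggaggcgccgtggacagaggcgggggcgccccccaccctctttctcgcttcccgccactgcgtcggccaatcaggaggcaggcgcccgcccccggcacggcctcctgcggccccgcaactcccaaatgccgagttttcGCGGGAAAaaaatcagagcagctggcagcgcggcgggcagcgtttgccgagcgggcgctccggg
DNMT1: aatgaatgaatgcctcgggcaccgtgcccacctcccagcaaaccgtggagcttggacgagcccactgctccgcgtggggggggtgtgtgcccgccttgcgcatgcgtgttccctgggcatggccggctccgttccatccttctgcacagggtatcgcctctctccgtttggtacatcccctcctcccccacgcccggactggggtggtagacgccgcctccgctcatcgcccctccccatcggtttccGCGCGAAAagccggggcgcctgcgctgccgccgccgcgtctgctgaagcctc
EZH2: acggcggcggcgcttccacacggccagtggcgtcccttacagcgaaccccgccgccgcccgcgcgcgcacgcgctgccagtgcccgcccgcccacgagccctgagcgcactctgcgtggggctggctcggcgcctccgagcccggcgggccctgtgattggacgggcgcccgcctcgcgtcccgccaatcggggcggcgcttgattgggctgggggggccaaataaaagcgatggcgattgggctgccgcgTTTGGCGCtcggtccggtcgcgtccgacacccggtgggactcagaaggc
EZH1: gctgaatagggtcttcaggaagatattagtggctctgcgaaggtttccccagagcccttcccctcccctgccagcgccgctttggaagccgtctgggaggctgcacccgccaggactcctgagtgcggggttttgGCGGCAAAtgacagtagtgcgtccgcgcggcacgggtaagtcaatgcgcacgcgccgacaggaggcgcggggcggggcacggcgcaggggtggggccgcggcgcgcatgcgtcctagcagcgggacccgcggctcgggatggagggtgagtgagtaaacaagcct

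The motifs searched on both strands were TTTCGCGC, TTTGCCGC, TTTCCCGC and TTTGGCGC for E2F factors and CACGTG, the E-box bound by MYC family proteins. An E2F motif was found for 5 of the 9 genes, EZH2, EZH1, SUZ12, DNMT1 and UHRF1, against 3.99% of all 27305 genes with a window. A gene with more windows has more places for a match. EZH2 and UHRF1 each also had a window without an E2F motif, which is not shown. Counted by window, the share was 31.58% for the members and 3.31% for all windows. Of the 16 proliferation genes with a window, 56.25% held an E2F motif. In EZH2 it began 1 base after the annotated start, in DNMT1 2 bases before it, in UHRF1 14 bases before it and in EZH1 115 bases before it. The E-box was found for 1 of the 9 genes, DNMT3A, against 8.77% of all genes. The windows of the members were rich in CpG dinucleotides, with a median of 28 per window and 73% G and C, against 14 and 58.7% over all 35116 windows. Each motif searched contains a CG, so windows rich in CpG offer more places for a match. The shares were not adjusted for this. These matches are letters in a window, and binding was not measured.

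Library totals ranged from 15177071 to 32344170 counts. Levels per library are given as CPM, the count divided by the library's TMM-scaled total and put on a common scale. MYCL, the targeted gene, had 12.1 and 14.2 CPM in C4-2B control and 3733 and 4242 in C4-2B MYCL, and it fell from 104.2 and 81.8 CPM in shCtrl to 10.3 and 11.99 in shMYCL. The summed CPM of 8 prostate luminal markers was 3276 to 4553 in C4-2B and 5.93 to 7.11 in NCI-H660, and that of 8 neuroendocrine markers was 11.5 to 14.1 in C4-2B and 1115 to 1687 in NCI-H660, so both lines carried the markers of their labels. Of 8 markers of stromal and blood cells, 3 to 5 had 0 counts in each library, and their summed CPM was 22.1 to 26.8 in C4-2B control, 53.9 to 58.1 in C4-2B MYCL and 8.84 to 10.8 in NCI-H660. A set of 21 proliferation genes summed to 3380 to 3416 CPM in C4-2B control, 1957 to 2115 in C4-2B MYCL, 7296 to 7373 in shCtrl and 7943 to 7964 in shMYCL. In bulk RNA, fewer cells of a type and less RNA per cell cannot be told apart.

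Levels were compared between genes in TPM, a transcript share that corrects for gene length. The deposited TPM did not follow from the counts with 1 length per gene: from C4-2B control replicate 1 to C4-2B MYCL replicate 1, TPM divided by CPM changed by a factor of 0.832 for DNMT3A and of 0.953 for EZH2. Differences between libraries on the TPM scale, and ratios of TPM, therefore also carry lengths that differed by library. In C4-2B control cells, DNMT1 stood highest at 47.3 ± 1.10 TPM (SD, n = 2), followed by SUZ12 at 39.1 ± 1.32 and EZH2 at 35.2 ± 2.84. UHRF1 at 20.8 ± 2.49, EED at 20.2 ± 1.72 and CBX2 at 19.1 ± 2.15 formed a middle tier in which the ranges of the libraries overlapped. DNMT3A at 6.57 ± 0.94, DNMT3B at 5.46 ± 0.82 and EZH1 at 5.10 ± 0.43 lay lower, where DNMT3B overlapped with each of its neighbours, and TET1 was lowest at 1.16 ± 0.19. The maintenance methyltransferase thus had more transcript per length than the enzymes that set new marks, and EZH2 had more than EZH1.

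In NCI-H660 shCtrl cells the order was different, and no neighbours in it overlapped. UHRF1 stood highest at 153.6 ± 4.09 TPM (SD, n = 2), then SUZ12 at 122.3 ± 14.3, DNMT1 at 102.3 ± 1.18 and EED at 59.2 ± 0.95. EZH2 at 52.3 ± 5.25, CBX2 at 40.3 ± 2.56 and DNMT3A at 26.7 ± 0.42 came next. TET1 reached 16.6 ± 3.87 TPM, above DNMT3B at 8.78 ± 0.46 and EZH1 at 6.36 ± 0.81.

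**Figure D1:**
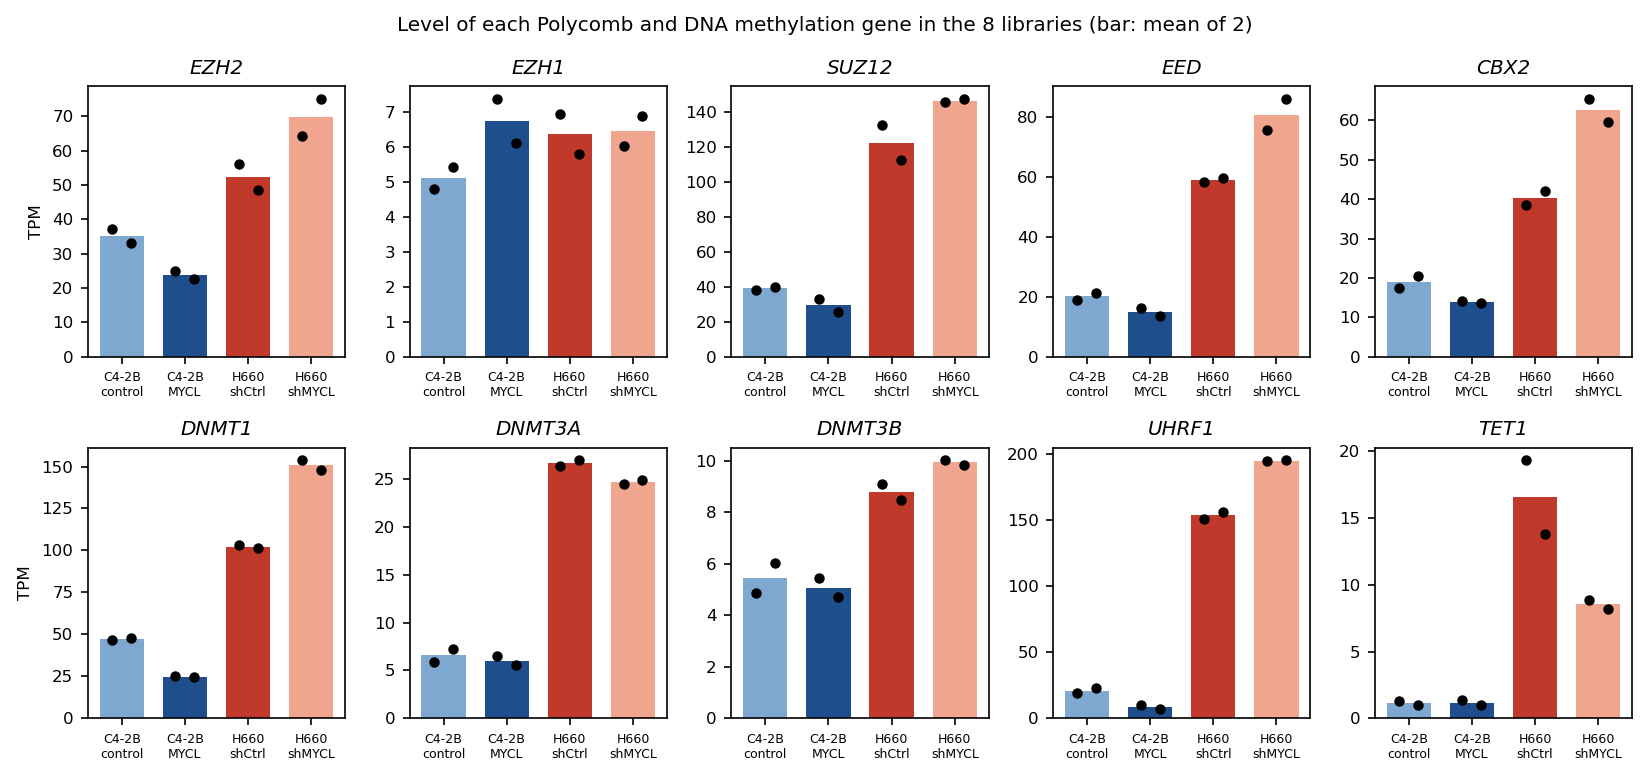
TPM of each of the 10 genes (vertical axis, own scale per panel, from 0) in the 4 groups; bars are means of 2 libraries and points are the libraries. UHRF1 reached 150.7 TPM or more in every NCI-H660 library and at most 22.6 in C4-2B, while EZH1 stayed between 4.80 and 7.37 in all 8 libraries.

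The control cells of both lines were then compared gene by gene, to see how the neuroendocrine line differs from the adenocarcinoma line in this machinery. SUZ12, EED, CBX2, DNMT1, DNMT3A, UHRF1 and TET1 were higher in NCI-H660, 7 of the 10 genes, and 0 were lower. Over all 19605 genes tested in this fit, 77.8% passed an adjusted p of 0.05, 40.5% as higher and 37.3% as lower in NCI-H660. Cell line, vector and culture cannot be told apart here, and mitochondrial genes held 9.63% to 10.7% of counts in C4-2B libraries and 3.50% to 3.83% in NCI-H660 libraries.

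TET1, the dioxygenase, differed most, with 11.02 and 8.66 CPM in C4-2B control and 105.0 and 79.4 in shCtrl, a log2 fold change of 3.22 (SE 0.16, edgeR adjusted p = 4.69e-10). UHRF1 rose from 61.0 and 71.8 CPM to 310.1 and 340.6, a log2 fold change of 2.30 (SE 0.12, edgeR adjusted p = 8.95e-10). For both genes the lines were far apart compared with the spread within a line. DNMT3A, the de novo enzyme, was higher by a log2 fold change of 1.19 (SE 0.11), SUZ12 by 1.04 (SE 0.10), EED by 0.95 (SE 0.11), CBX2 by 0.56 (SE 0.10) and DNMT1 by 0.51 (SE 0.08), with edgeR adjusted p-values from 2.51e-07 to 1.49e-04.

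On the CPM scale the catalytic subunits of PRC2 gave no difference that passed. EZH2 gave 76.6 and 67.7 CPM in C4-2B control and 73.4 and 67.5 in shCtrl, overlapping ranges with a log2 fold change of -0.04 (SE 0.10, edgeR adjusted p = 0.757). EZH1 gave a log2 fold change of -0.23 (SE 0.12, edgeR adjusted p = 0.103) and DNMT3B one of 0.10 (SE 0.13, edgeR adjusted p = 0.465). These 3 values depended on the scale: on the log2(TPM + 1) scale the median gene itself moved by 0.53, EZH2 was higher in NCI-H660 by 0.55, EZH1 by 0.27 and DNMT3B by 0.60. There 9 of the 10 genes passed as higher, EZH2 (limma adjusted p = 0.00324, and from 0.00324 to 0.958 over all 20 alternatives) and DNMT3B (limma adjusted p = 0.00290, and from 0.00290 to 0.808) included, and 0 as lower. With each library centred on its median on that scale, EZH1 passed as lower and EZH2 and DNMT3B did not pass (7 of the 10 genes higher and 1 lower). The proliferation genes were higher in 15 and lower in 3 of 21 cases in NCI-H660 (17 and 0 on log2(TPM + 1)), with a median log2 fold change of 1.02, and their part in the difference between the lines was not tested.

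MYCL overexpression in C4-2B was examined next. EZH2, CBX2, DNMT1 and UHRF1 fell and EZH1 rose, which makes 4 of the 10 genes lower and 1 higher. Over all 16866 genes tested, 35% passed, 17.4% as lower and 17.6% as higher. The median log2 fold change of the 10 genes was -0.27, against -0.0017 over all genes. With a further minimum of 0.5 on the absolute log2 fold change, 3 of the 10 genes passed (EZH1, DNMT1 and UHRF1), against 19.9% of all genes. On the log2(TPM + 1) scale, with a median of -0.14 over all genes, 6 of the 10 genes passed as lower and 0 as higher. With each library centred on its median on that scale, 3 passed as lower (EZH2, DNMT1 and UHRF1) and 1 as higher (EZH1).

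Among the DNA methylation genes, UHRF1 showed the largest change. Its level was 61.0 and 71.8 CPM without the MYCL vector and 32.6 and 24.5 CPM with it. Both MYCL libraries were below both controls, and UHRF1 was 2.30-fold lower (log2 fold change -1.20, SE 0.14, edgeR adjusted p = 3.07e-04). DNMT1, its partner in copying methylation, went from 209.5 and 217.2 CPM to 121.6 and 126.3 CPM. The groups were again apart, and DNMT1 was 1.71-fold lower (log2 fold change -0.78, SE 0.07, edgeR adjusted p = 1.06e-04). Groups of 2 libraries can be apart without a change, here and below. The share of all genes with groups apart was not counted.

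The enzymes that set new marks and the enzyme that oxidises them gave no change that passed. DNMT3A had 27.1 and 33.1 CPM against 35.8 and 32.2 CPM with MYCL, overlapping groups with a log2 fold change of 0.19 (SE 0.12, edgeR adjusted p = 0.243) that became negative on the TPM scale. DNMT3B had 16.6 and 20.6 CPM against 19.4 and 17.8, a log2 fold change of 0.01 (SE 0.13, edgeR adjusted p = 0.954) whose sign also turned on the TPM scale. TET1 was low, with 11.02 and 8.66 CPM against 12.4 and 9.84, and a log2 fold change of 0.18 (SE 0.18, edgeR adjusted p = 0.480). For these 3 genes the control and MYCL libraries overlapped, with 2 libraries in each group.

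In PRC2, EZH2 went from 76.6 and 67.7 CPM to 54.2 and 52.8 CPM. EZH2 was 1.34-fold lower (log2 fold change -0.43, SE 0.09, edgeR adjusted p = 0.00536), with no overlap between the groups. EZH1, the catalytic subunit that predominates in non-dividing cells, went the other way, from 17.8 and 19.0 CPM to 29.7 and 26.7. It was 1.54-fold higher (log2 fold change 0.63, SE 0.10, edgeR adjusted p = 0.00199), while on log2(TPM + 1) it was higher by 0.34 and did not pass (limma adjusted p = 0.0992, and from 4.58e-06 to 0.235 over all 16 alternatives). Centred on library medians on that scale, EZH1 passed as higher.

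The scaffold subunits of PRC2 had lower values in MYCL libraries without passing. SUZ12 had 144.4 and 150.8 CPM against 132.7 and 110.8 CPM with MYCL, a log2 fold change of -0.27 (SE 0.09, edgeR adjusted p = 0.0513), and EED had 29.0 and 32.3 against 26.1 and 24.1, a log2 fold change of -0.28 (SE 0.10, edgeR adjusted p = 0.0610). SUZ12 lay so near the threshold that it passed in 8 of 16 alternatives, DESeq2 among them (adjusted p = 0.0362, and from 4.36e-04 to 0.179 over the 16). CBX2, the PRC1 reader, had 65.2 and 73.3 CPM against 55.7 and 56.9 CPM with MYCL, and was lower by a log2 fold change of -0.29 (SE 0.09, edgeR adjusted p = 0.0273). Single libraries decided part of these calls: without C4-2B control replicate 1, EZH2 no longer passed (edgeR adjusted p = 0.0569), without C4-2B control replicate 2, CBX2 no longer passed (edgeR adjusted p = 0.245), and without C4-2B MYCL replicate 1, SUZ12 and EED passed as lower (edgeR adjusted p = 4.36e-04 and 0.0451).

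The proliferation genes moved with this comparison: 20 of 21 were lower in C4-2B MYCL, with a median log2 fold change of -0.88, and the replication genes CCNE2 (-1.79), MCM5 (-1.59), MCM4 (-1.29) and MCM2 (-1.23) fell the most. Their part in the lower EZH2, DNMT1 and UHRF1 was not tested. Of the 8 luminal markers 6 were lower and 1 higher in C4-2B MYCL, and the 2 stromal and blood markers expressed enough to test, COL1A1 (0.74) and CD68 (1.53), were higher. Their part was not tested either.

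Knockdown of MYCL in NCI-H660 asks the converse question in cells that carry their own MYCL. EZH2, EED, CBX2, DNMT1 and UHRF1 rose and TET1 fell, 5 of the 10 genes higher and 1 lower. Over all 16980 genes tested, 24.8% passed, 12% as higher and 12.7% as lower. The median log2 fold change of the 10 genes was 0.29, against -0.0029 over all genes. With a further minimum of 0.5 on the absolute log2 fold change, 3 of the 10 genes passed (CBX2, DNMT1 and TET1), against 16.2% of all genes. On log2(TPM + 1) the split was 3 higher (EED, CBX2 and DNMT1) and 1 lower, and on log2(TPM + 0.1) it was 2 higher and 1 lower. EZH2 (limma adjusted p = 0.0798, and from 0.00633 to 0.288 over all 16 alternatives) and UHRF1 (limma adjusted p = 0.0698, and from 0.00461 to 0.144) did not pass on log2(TPM + 1).

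TET1 changed the most, with 105.0 and 79.4 CPM in shCtrl and 49.5 and 45.8 in shMYCL. Both knockdown libraries lay below both controls although the controls differed from each other, and TET1 was 1.94-fold lower (log2 fold change -0.95, SE 0.13, edgeR adjusted p = 8.54e-05). DNMT1 had 297.7 and 310.5 CPM in shCtrl and 453.4 and 436.7 in shMYCL. It was 1.46-fold higher, with the groups apart (log2 fold change 0.55, SE 0.10, edgeR adjusted p = 0.00124).

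UHRF1 had 310.1 and 340.6 CPM in shCtrl and 409.6 and 411.7 in shMYCL, a log2 fold change of 0.33 (SE 0.10, edgeR adjusted p = 0.0280). The libraries did not overlap, yet the call was near the threshold, and UHRF1 did not pass in 9 of 16 alternatives. DNMT3A had 67.1 and 69.9 CPM against 65.4 and 64.2, a log2 fold change of -0.08 (SE 0.10, edgeR adjusted p = 0.604). DNMT3B had 20.3 and 19.6 CPM against 22.0 and 21.4, a log2 fold change of 0.12 (SE 0.13, edgeR adjusted p = 0.544). The groups did not overlap for either of these de novo enzymes, but the differences were no larger than their errors.

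Of the Polycomb genes, CBX2 rose most, from 94.7 and 108.8 CPM in shCtrl to 161.5 and 148.2 in shMYCL. This was 1.52-fold, with the groups apart (log2 fold change 0.60, SE 0.11, edgeR adjusted p = 0.00104). EED went from 56.2 and 62.0 CPM to 74.2 and 84.4 (log2 fold change 0.42, SE 0.11, edgeR adjusted p = 0.0123), and EZH2 from 73.4 and 67.5 to 85.8 and 100.2 (log2 fold change 0.40, SE 0.11, edgeR adjusted p = 0.0166). For EED and EZH2 the knockdown libraries were above both controls, with 1 of them well above the other.

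SUZ12 had 319.7 and 286.5 CPM in shCtrl and 359.4 and 365.6 in shMYCL, a log2 fold change of 0.26 (SE 0.10, edgeR adjusted p = 0.0847). EZH1 had 16.3 and 15.01 CPM against 14.97 and 17.0, overlapping groups with a log2 fold change of 0.03 (SE 0.14, edgeR adjusted p = 0.916). Leaving out H660 shMYCL replicate 2 took EZH2, EED and UHRF1 below the call (edgeR adjusted p = 0.288, 0.205 and 0.144) and left CBX2, DNMT1 and TET1, a count of 3 in place of 6. UHRF1 also did not pass without shCtrl replicate 1 (edgeR adjusted p = 0.0874) or without shMYCL replicate 1 (edgeR adjusted p = 0.119), and SUZ12 passed as higher without shCtrl replicate 1 (edgeR adjusted p = 0.0316). Of the proliferation genes, 9 of 21 were higher and 2 lower with knockdown (median log2 fold change 0.25, and 10 higher and 4 lower with DESeq2), MYBL2 (0.93) and E2F8 (0.84) among the higher and the mitotic cyclin CCNB1 (-1.12) among the lower. Of the 8 neuroendocrine markers, 4 were lower and 1 higher with knockdown. The part of either list in the higher DNMT1, UHRF1 and EZH2 or the lower TET1 was not tested.

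**Figure D2:**
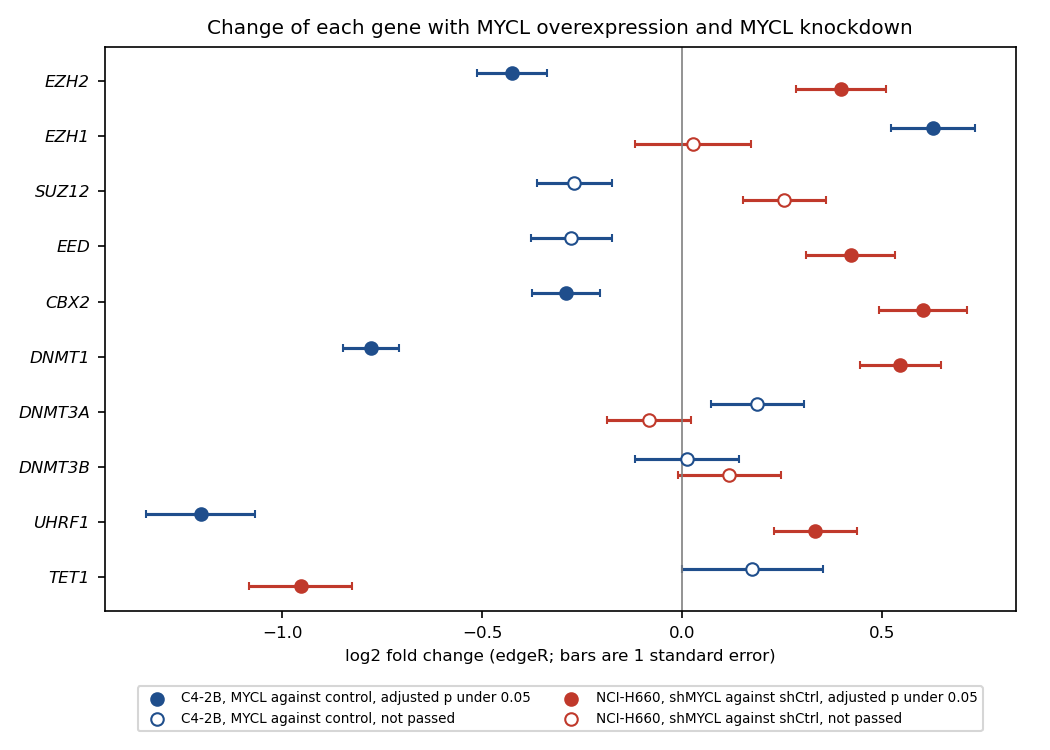
log2 fold change of the 10 genes (horizontal axis) for MYCL against control in C4-2B (blue) and shMYCL against shCtrl in NCI-H660 (red), with bars of 1 standard error and filled points at an edgeR adjusted p under 0.05. EZH2, CBX2, DNMT1 and UHRF1 are filled in both comparisons, to the left with overexpression and to the right with knockdown. EZH1 is filled only in C4-2B and TET1 and EED only in NCI-H660. The share of all genes that passed in both comparisons was not counted.

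The C4-2B and NCI-H660 comparisons share no libraries, so their values can be read side by side. EZH2, CBX2, DNMT1 and UHRF1 passed in both on the CPM scale, each lower where MYCL was high, with log2 fold changes for high against low MYCL of -0.43 and -0.40 for EZH2, -0.29 and -0.60 for CBX2, -0.78 and -0.55 for DNMT1 and -1.20 and -0.33 for UHRF1. Over all genes tested, 17.4% passed as lower in C4-2B MYCL and 12% as higher in shMYCL. The share of all genes that passed in both was not counted, so whether these genes stand out cannot be judged. In NCI-H660, EZH2 did not pass in 6 and UHRF1 in 9 of the 16 alternatives, every TPM setting among them, and CBX2 and DNMT1 did not pass in 1. In C4-2B, CBX2 did not pass in 4 and EZH2 in 2 of the 16 alternatives, while DNMT1 and UHRF1 passed in all 16. Whether an effect differed between the lines was tested directly, as the C4-2B effect minus the NCI-H660 effect of high against low MYCL. MYCL itself changed by a log2 fold change of 8.26 with the vector in C4-2B and of -3.06 with knockdown in NCI-H660. Cell line, the size of the MYCL change and the way MYCL was changed cannot be told apart in this difference. A total of 3 of the 10 genes differed, EZH1 upwards and UHRF1 and TET1 downwards, where 20.2% of 19605 genes passed, 10.6% upwards and 9.63% downwards.

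UHRF1 fell more in C4-2B than in NCI-H660, by -0.88 on the log2 scale (SE 0.17, edgeR adjusted p = 0.00348). EZH1 rose in C4-2B and gave a log2 fold change of -0.03 for high against low MYCL in NCI-H660, a difference of 0.65 (SE 0.18, edgeR adjusted p = 0.0198). TET1 was higher with MYCL in NCI-H660 by 0.95 and gave 0.18 in C4-2B, a difference of -0.79 (SE 0.23, edgeR adjusted p = 0.0281). The UHRF1 difference passed in 18 of 19 alternatives, that of EZH1 in 11 and that of TET1 in 10, and on log2(TPM + 1) neither EZH1 nor TET1 passed and the split was 0 upwards and 2 downwards (DNMT1 and UHRF1).

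For the other 7 genes the difference did not pass, and its size is bounded only by its error: -0.03 (SE 0.14) for EZH2, -0.02 (SE 0.14) for SUZ12, 0.14 (SE 0.15) for EED, 0.31 (SE 0.14) for CBX2, -0.23 (SE 0.11) for DNMT1, 0.10 (SE 0.15) for DNMT3A and 0.13 (SE 0.18) for DNMT3B. The calls for EZH1 and TET1 rested on single libraries: without C4-2B control replicate 1, or without H660 shMYCL replicate 2, UHRF1 alone passed, a count of 1 in place of 3. TET1 also did not pass without C4-2B MYCL replicate 2, shCtrl replicate 1 or shMYCL replicate 1, and EZH1 also did not pass without C4-2B MYCL replicate 1 or shCtrl replicate 2. Of the 21 proliferation genes, 15 fell more with high MYCL in C4-2B than in NCI-H660, with a median difference of -0.72.

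Ratios of TPM within a library show how the balance of paired enzymes shifted, as a description without a test. The ratio of EZH2 to EZH1 was 7.77 and 6.14 in C4-2B control and 3.41 and 3.70 in C4-2B MYCL, and 8.07 and 8.39 in shCtrl and 10.7 and 10.9 in shMYCL. It was lower in the MYCL-high libraries of each line. In NCI-H660, however, the groups overlapped for EZH1, and EZH2 did not pass on log2(TPM + 1). EZH1 did not pass on that scale in C4-2B. The ratio of DNMT1 to TET1, a copying enzyme against an eraser, was 36 and 46.9 in C4-2B control and 18.5 and 24.4 in C4-2B MYCL, and 5.34 and 7.33 in shCtrl and 17.4 and 18 in shMYCL. It was also lower where MYCL was high, and in this ratio alone NCI-H660 libraries with MYCL knocked down came close to C4-2B libraries with MYCL added. The levels were far apart, with mean DNMT1 at 150.8 TPM in shMYCL and 24.8 in C4-2B MYCL, and mean TET1 at 8.53 and 1.18. TET1 gave no change that passed in C4-2B.

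The ratio of UHRF1 to DNMT1 separated the lines, with 0.284 to 0.470 in C4-2B and 1.27 to 1.54 in NCI-H660. The ratio of DNMT3A to DNMT3B was 1.19 to 1.21 in all 4 C4-2B libraries, 2.89 and 3.19 in shCtrl and 2.45 and 2.53 in shMYCL. Lengths enter this ratio unequally. From C4-2B control replicate 1 to C4-2B MYCL replicate 1, TPM divided by CPM changed by a factor of 0.832 for DNMT3A and 0.955 for DNMT3B. EZH2 over SUZ12 was 0.755 to 0.977 in C4-2B and 0.423 to 0.509 in NCI-H660, so the line with more SUZ12 did not have EZH2 in proportion.

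**Figure D3:**
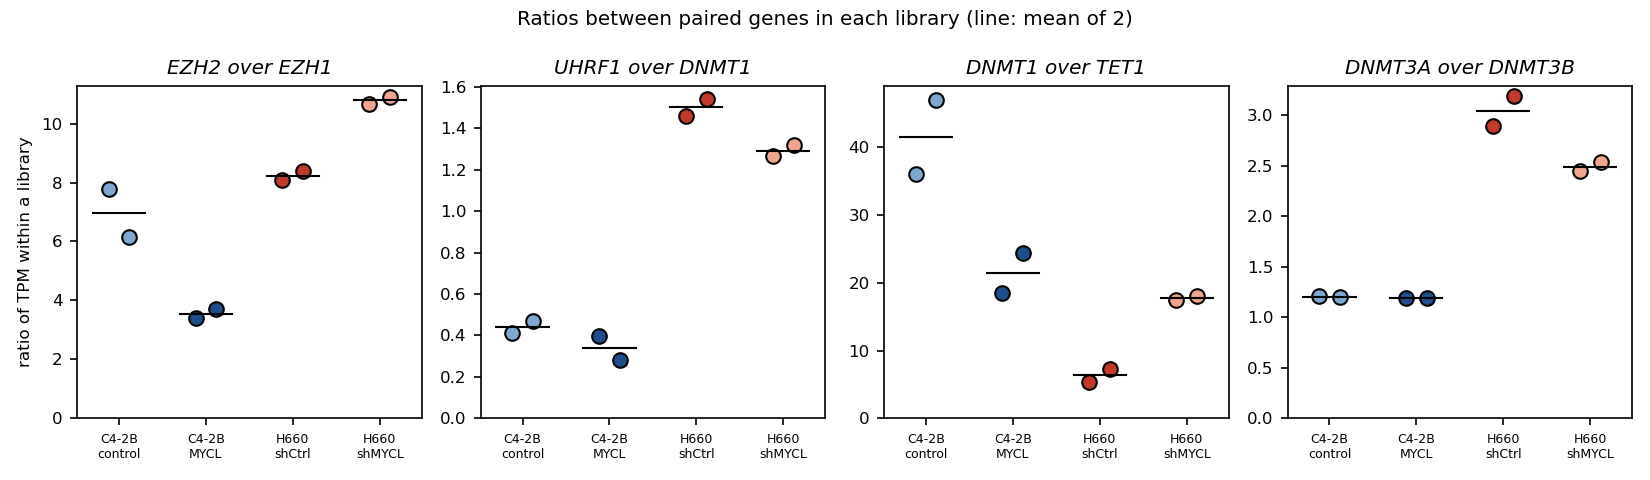
Ratio of TPM within each library (vertical axis, from 0) for EZH2 over EZH1, UHRF1 over DNMT1, DNMT1 over TET1 and DNMT3A over DNMT3B, with 2 points and their mean per group. EZH2 over EZH1 is 3.41 and 3.70 in C4-2B MYCL and above 6 in the other 6 libraries, and UHRF1 over DNMT1 is above 1 in NCI-H660 only.

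Genes that work with these enzymes were counted from 10 lists, of which the lists closest to each enzyme are given first. These counts stand beside 35% of all genes in C4-2B and 24.8% in NCI-H660 that passed, and no list was tested against all genes. In C4-2B, 5 of the 9 tested DNA methylation cofactors were lower and 0 higher with MYCL (median log2 fold change -0.31), among them HELLS, the remodeller that gives DNMT enzymes access to chromatin (-1.29, SE 0.09, edgeR adjusted p = 4.26e-05), its partner CDCA7 (-0.69, edgeR adjusted p = 0.00307), USP7, which stabilises DNMT1 and UHRF1 (-0.36, edgeR adjusted p = 0.00403), and the histone methyltransferase SETD2 (-0.31, edgeR adjusted p = 0.0264). In NCI-H660, 1 of 9 passed, HELLS, which was higher with knockdown (0.37, SE 0.11, edgeR adjusted p = 0.0199). HELLS therefore moved in the same directions as DNMT1 and UHRF1.

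In the DNA demethylation list, 2 of 6 tested genes were lower and 1 higher in C4-2B MYCL. TDG, the glycosylase that removes oxidised bases, fell by 0.55 on the log2 scale and TET3 by 0.49, while CXXC5, a CpG-binding zinc finger protein, rose by 1.03 (edgeR adjusted p from 2.05e-04 to 0.00216). In shMYCL cells, 3 of 7 were lower, CXXC4 (-0.80), CXXC5 (-0.44) and TET2 (-0.41), and 1 was higher, OGT (0.56, edgeR adjusted p = 0.00283 for OGT). With DESeq2, 2 of these 3 lower genes passed, all but TET2, and on log2(TPM + 1) CXXC4 alone did.

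Of 9 PRC2 partners, 1 was higher (PHF1, 0.56) and 1 lower (EPOP, -0.45) in C4-2B MYCL (0 higher and 3 lower on log2(TPM + 1)), and 0 of 9 passed in NCI-H660 by edgeR's quasi-likelihood test, where 2 had an unadjusted p under 0.05 and DESeq2 also passed 0. Of 24 PRC1 subunits, 2 were higher in C4-2B MYCL, among them PCGF5 (0.57), and 3 were lower, among them BMI1 (-0.57) and CBX6 (-0.38), against 1 higher and 3 lower on log2(TPM + 1). In shMYCL cells 5 of 24 were higher and 0 lower, among them AUTS2 (0.71), CBX8 (0.51), L3MBTL2 (0.47) and PHC2 (0.38), while DESeq2 passed 4 and limma on log2(TPM + 1) passed 1.

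Enzymes that oppose Polycomb gave 1 higher and 2 lower of 9 in C4-2B MYCL and 1 higher and 1 lower of 10 in shMYCL. KDM6B, which removes the mark set by EZH2, was higher in C4-2B MYCL (0.73, SE 0.10, edgeR adjusted p = 6.36e-04) and lower in shMYCL (-0.44, SE 0.13, edgeR adjusted p = 0.0178), the reverse of EZH2. KMT2D (-0.43) and BAP1 (-0.30) were lower in C4-2B MYCL and KDM6A (0.34) was higher in shMYCL. On the log2(TPM + 1) scale limma passed 0 of the opposing enzymes, cofactors and methyl-CpG readers in NCI-H660, with 2, 2 and 3 at an unadjusted p under 0.05.

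Among methyl-CpG readers, ZBTB33 (-0.48) and MBD2 (-0.30) were the 2 of 8 that were lower in C4-2B MYCL, and in shMYCL ZBTB38 (0.42) and MBD1 (0.30) were higher and ZBTB33 (-0.41) lower. Of the 6 genes listed under methyl donor supply, AHCYL1 was higher (0.40) and MAT2B lower (-0.27) in C4-2B MYCL. What AHCYL1 does in this supply was not examined. In shMYCL 4 of 6 were lower, among them AHCYL1 (-0.46) and MAT2B (-0.35), and MAT2A, which makes the methyl donor S-adenosylmethionine, was higher (0.75, SE 0.10, edgeR adjusted p = 8.19e-05). The split of this list in shMYCL was 2 higher and 2 lower with DESeq2 and 1 higher and 1 lower on log2(TPM + 1), and MAT2B passed in neither.

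**Figure D4:**
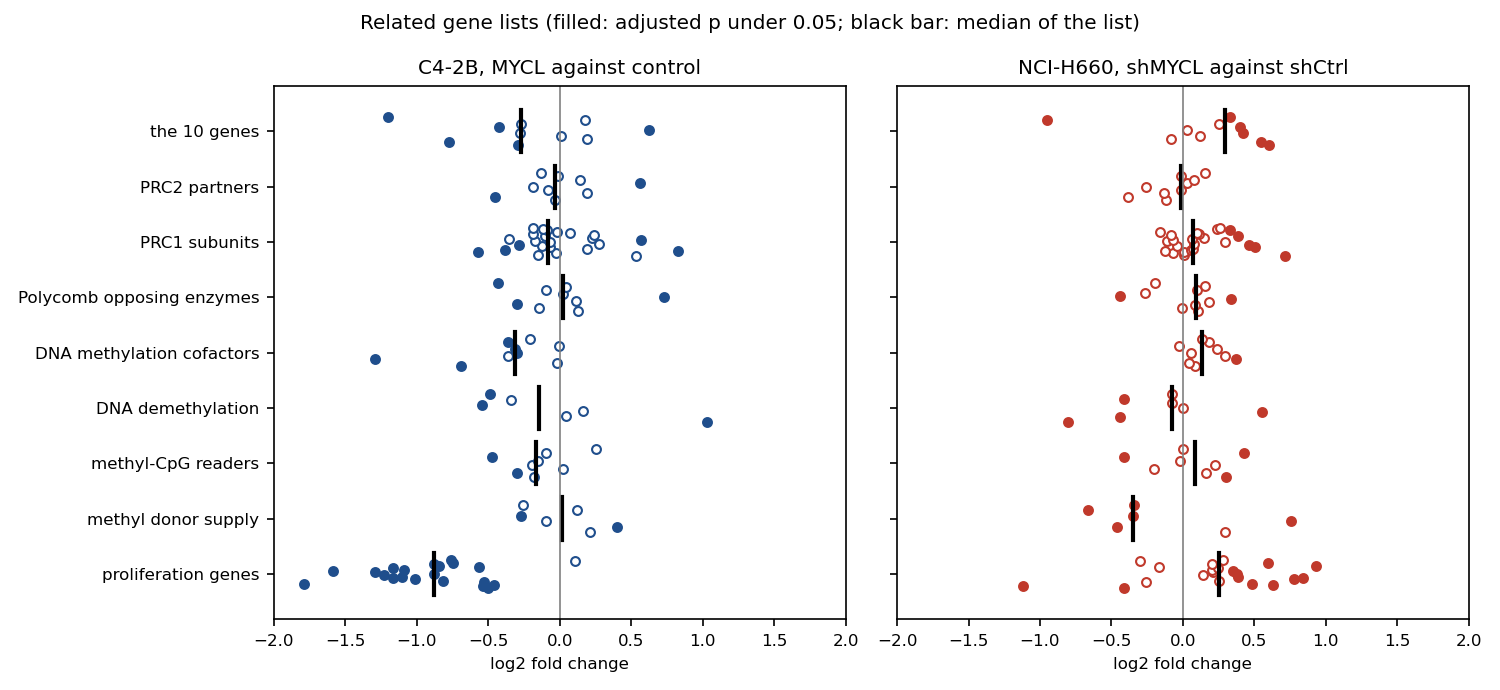
log2 fold change (horizontal axis) of every tested gene of the 10 genes and 8 related lists in C4-2B (left) and NCI-H660 (right); filled points have an edgeR adjusted p under 0.05 and black bars are list medians. The proliferation genes lie furthest left in C4-2B (median -0.88), and the 10 genes have medians of -0.27 in C4-2B and 0.29 in NCI-H660.

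Genes that these systems are known to silence in other cells were counted as well. Of 40 known Polycomb targets, 18 were expressed enough to test in C4-2B, where 1 was higher (PAX9, 0.33) and 2 lower, among them MEIS1 (-1.18), although DESeq2 did not pass PAX9 (adjusted p = 0.114), and 12 to 16 had 0 counts in each C4-2B library. In NCI-H660, 5 of 19 tested were higher with knockdown and 2 lower, with TBX3 (0.70) and DAB2IP (0.30) among the higher and DLX5 (-0.70) and PAX9 (-0.37) the lower, against 1 higher and 1 lower on log2(TPM + 1). Of 20 germline genes silenced by DNA methylation in other tissues, 3 of 9 were higher and 2 lower in C4-2B MYCL, among them XAGE1B (0.37) and MAGEA1 (-0.42), and 1 of 3 was higher in shMYCL.

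Likeness over the 8 libraries was described for UHRF1 and EZH2 against 10172 genes, as a Pearson correlation of log2 CPM over libraries that fall into 2 cell lines, with no p. The genes most like UHRF1 were WDR6, POLD3, CCNE2, KANK2 and MSH6 (r from 0.9974 to 0.9991). Among the genes most like EZH2 were PTPRM, DHX15, PRPF38A and CTPS1 (r from 0.9773 to 0.9872).

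The estimated counts of SUZ12, EED and UHRF1 lay more than 0.01 from whole numbers, which those of the other 7 genes did not, as can happen where reads are divided between genes, and how the counting treated shared reads is not given in the sources used here. SUZ12P1, a pseudogene copy of SUZ12, held 17.4 to 111.3 counts per library, against 1835 to 6037 for SUZ12. Exons of EED overlap an antisense long noncoding RNA over 3.16% of their bases, and exons of DNMT1 overlap S1PR2 over 0.54%.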

How the data were processed

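RNA from 8 libraries, 2 in each of 4 groups, had been sequenced as poly(A)-selected paired-end reads on build hg38. The aligner and counting tool are not given in the sources used here. The authors deposited estimated counts per gene, which were rounded to whole numbers here, and TPM values, which the study's methods describe as counts divided by Ensembl gene length and scaled to a common sum. The deposited TPM did not follow from the counts with 1 length per gene, so how lengths were set is not given in the sources used here. The TPM came in a table that holds fewer genes than the count table and includes all 10 described here. Totals ranged from 15177071 to 32344170 counts, and replicate libraries differed by more than sampling noise. The number of libraries limits the precision.

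The rounded counts were scaled with TMM factors, filtered with filterByExpr and tested by the quasi-likelihood method of edgeR 4.0.16 (R 4.3.3), within each cell line, and in 1 fit of all groups for the difference of effects and the control lines. Genes passed at a Benjamini-Hochberg adjusted p under 0.05 over all genes tested. Standard errors came from the fold change and the test statistic. An exact permutation test of 2 against 2 libraries cannot go below p = 0.33, so none was used. The fits were tested on simulated data.

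The 10 genes and the lists were chosen with earlier results of these data known. From each list, up to 4 genes with the largest absolute log2 fold change were named in each line among those that passed with a mean log2 CPM of at least 3, besides all 10 genes, MYCL and the 5 most alike genes of UHRF1 and EZH2. COL1A1, CD68 and the counts of markers fall outside this rule, and 3 genes it names are not reported here. Other settings tried were DESeq2 1.42.0, relative log expression factors, other filters, a fold minimum of 0.5, limma 3.58.1 on TPM with pseudocounts of 1 or 0.1 for genes at 1 TPM or more in 2 libraries, a replicate block, summed gene names, other sets of libraries and each library left out. Promoters are from RefSeq (GRCh38.p14), read with Python 3.11.15. Gene overlaps are from GENCODE 44.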

Additional observations from a re-analysis of the deposited data

Results flagged for a closer look

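For 3 of the 10 genes, the effect of high against low MYCL differed between the cell lines by the interaction test of edgeR. Cell line, the size of the MYCL change and the way MYCL was changed cannot be told apart in this test. The C4-2B effect minus the NCI-H660 effect was 0.65 on the log2 scale for EZH1, which was higher with MYCL in both C4-2B libraries and had overlapping groups in NCI-H660. It was -0.88 for UHRF1, which was lower where MYCL was high in each line and fell more in C4-2B. It was -0.79 for TET1, which was lower after knockdown in both NCI-H660 libraries and had overlapping groups in C4-2B. With 2 libraries in each group, no library was examined for standing apart from its group. Over the 19 alternatives the adjusted p ranged from 0.00926 to 0.365 for EZH1, from 2.51e-08 to 0.0839 for UHRF1 and from 2.31e-04 to 0.145 for TET1.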

How the results depend on the processing

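Leaving out single libraries gave 4 to 7 genes passing in C4-2B, 3 to 6 in NCI-H660, 1 to 3 for the difference between lines and 7 throughout for the control lines, against 5, 6, 3 and 7 with all libraries. A minimum of 0.5 on the absolute log2 fold change left 3 genes in each line. On log2(TPM + 0.1), 3 passed in NCI-H660. On log2(TPM + 1) without a filter, 3 passed in C4-2B, 1 for the difference and 0 in NCI-H660, where limma passed 0.0034% of all genes, 6 of the 10 had an unadjusted p under 0.05, and edgeR and DESeq2 had passed 6 and 7. With TPM centred on library medians, 1 passed for the difference. The number of replicates in each group limits these calls, and the cause of the changes was not tested.

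The replicate block gave 6 genes in C4-2B, 6 in NCI-H660, 3 for the difference and 7 for the control lines. Deviations of same-numbered libraries correlated at 0.0262 in C4-2B and 0.0211 in NCI-H660 over 19605 genes. These values rest on 2 libraries per group and carry sampling noise. They showed no pairing by number but cannot exclude one. Among the 10 genes SUZ12 alone changed its call, passing in C4-2B (edgeR adjusted p = 0.0316).

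Among the 10 genes, signs turned only for values that had not passed. In C4-2B, DNMT3B was -0.011 without a filter, -0.087 on log2(TPM + 1) with or without the filter, -0.10 on log2(TPM + 0.1) and -0.15 to 0.16 without single libraries, and DNMT3A was -0.10, -0.12 and -0.10 on the TPM scales. In NCI-H660, EZH1 was -0.064 to 0.12 without single libraries. For the difference, SUZ12 was 8.83e-05 with DESeq2 and 3.07e-05 with relative log expression factors, and DNMT3A was -0.21 on log2(TPM + 1) with or without the filter, -0.23 on log2(TPM + 0.1) and -0.12 centred. Without single libraries the differences were -0.14 to 0.12 for SUZ12, -0.049 to 0.26 for DNMT3A, -0.16 to 0.068 for EZH2 and -0.034 to 0.29 for DNMT3B. For the control lines, EZH2 was 0.0072 with DESeq2, 0.0069 with relative log expression factors, 0.55 on log2(TPM + 1) with or without the filter, 0.57 on log2(TPM + 0.1) and -0.13 to 0.060 without single libraries. There EZH1 was 0.27, 0.31 and 0.27 on the TPM scales, and DNMT3B was -0.14 centred and -0.045 to 0.25 without single libraries.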
